A study of Homo sapiens with 4 samples.

Results

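BTG1, BTG2, BTG3, TOB1, TOB2, ZFP36, ZFP36L1 and ZFP36L2 were followed in OVSAYO cells, an established line from a human ovarian clear cell carcinoma. The members were fixed by name as the BTG/TOB and ZFP36 families of early regulators, and their probes are all noncontrol probes whose RefSeq accession maps to one of these symbols. This gave 10 probes for 8 genes, of 26222 probes and 17721 genes with a symbol and 41000 noncontrol probes in all. TOB2 and ZFP36L1 had a pair of probes each and the other genes had 1.

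The BTG and TOB proteins are small antiproliferative proteins. They bind the CNOT7 and CNOT8 subunits of the CCR4-NOT deadenylase and bring it to mRNAs, whose poly(A) tails are then shortened. ZFP36 (tristetraprolin), ZFP36L1 and ZFP36L2 bind AU-rich elements of short-lived mRNAs through CCCH zinc fingers and recruit the same deadenylase. Several genes of both families are known as early response genes, which are transcribed soon after a stimulus and have unstable transcripts.

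The study asked which genes CoCl2, a hypoxia-mimicking agent, activates through the transcription factor Sp1. All cells were OVSAYO cells transfected with siRNA by lipofection. Control (NS-si) cells received a non-specific Silencer siRNA and Sp1-silenced (Sp1-si) cells a pool of siRNAs against Sp1, so silencing by a single Sp1 siRNA was not measured on these arrays. The labels name a different supplier of the Sp1 siRNA from the one in the study's methods. NS-si → CoCl2 and Sp1-si → CoCl2 cells were cultured for 40 h after transfection and then kept for 4 h in fresh medium with 0.5 mM CoCl2. The other groups had no CoCl2 according to the labels and a vehicle control according to the study's figure legend, which also gives a shorter culture time. The labels give these groups 40 h of culture as well, with 0 h of CoCl2. Whether they also had fresh medium is not known here. If not, CoCl2 cannot be told apart from the medium change and the added 4 h. Each condition had 1 array, and all 4 arrays were on 1 slide. A ratio therefore compares a single culture with another, has no replicate check and no test, and the number of arrays limits its precision.

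Values are given as scaled signals, which are processed spot intensities after the 75th percentile of each array was set to the same value (1121), and as log2 ratios of these. The error of a ratio is the SD between spots of like signal on an array, which does not cover differences between cultures. "Rose" and "fell" are used for log2 ratios of at least 1 in size with the probe well above background on the brighter array. The unscaled 75th percentile signal lay between 977 and 1287, and between 33081 and 34542 of 43376 spots were well above background. The targeted SP1 transcript fell with its siRNA, with log2 ratios of -3.77 (SD 0.11) without and -3.87 (SD 0.10) with CoCl2 on its probe with 10 spots, and of -3.96 and -4.30 on the other probe. All 5 epithelial and all 5 clear cell carcinoma markers were well above background on the 4 arrays. The defining leukocyte marker PTPRC, the endothelial markers PECAM1 and CDH5 and the fibroblast marker PDGFRB were well above background on none of the arrays. The summed scaled signal of the 4 fibroblast markers was 861 and 746 in NS-si cells without and with CoCl2 and 383 and 385 in Sp1-si cells, and its part in the ratios was not tested.

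The stretches upstream of the start are shown for BTG1, BTG2 and ZFP36, the members that passed the threshold in at least 1 comparison. They are the 250 bases before the RefSeq start on GRCh38.p14, written 5′ to 3′ on the strand of the gene. BTG1 is at chr12:92145847-92146096 on the minus strand, BTG2 at chr1:203305269-203305518 on the plus strand and ZFP36 at chr19:39406597-39406846 on the plus strand. Capitals mark the GC box GGGCGG, the core of sites bound by Sp1, and the hypoxia response element cores ACGTG and GCGTG, on either strand.
BTG1: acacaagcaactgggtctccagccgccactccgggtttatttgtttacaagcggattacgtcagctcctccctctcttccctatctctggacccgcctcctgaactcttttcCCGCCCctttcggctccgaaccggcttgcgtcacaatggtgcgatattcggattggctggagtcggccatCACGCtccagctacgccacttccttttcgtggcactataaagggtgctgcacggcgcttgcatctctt
BTG2: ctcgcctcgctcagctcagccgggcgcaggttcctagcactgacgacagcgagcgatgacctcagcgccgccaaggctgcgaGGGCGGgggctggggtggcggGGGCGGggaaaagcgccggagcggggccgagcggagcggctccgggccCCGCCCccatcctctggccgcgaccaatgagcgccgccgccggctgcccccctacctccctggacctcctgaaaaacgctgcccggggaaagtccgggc
ZFP36: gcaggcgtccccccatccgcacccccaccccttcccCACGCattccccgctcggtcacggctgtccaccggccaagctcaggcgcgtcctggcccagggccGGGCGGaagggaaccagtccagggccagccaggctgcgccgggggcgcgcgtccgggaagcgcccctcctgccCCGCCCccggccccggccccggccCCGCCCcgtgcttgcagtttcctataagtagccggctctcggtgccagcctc
BTG1 held 1 GC box, starting 138 bases before the start, and 1 GCGTG core, starting 68 bases before it. BTG2 held 3 GC boxes, at 168, 147 and 99 bases, and no hypoxia response element core. ZFP36 held 3 GC boxes, at 149, 76 and 52 bases, and 1 GCGTG core at 214 bases. None of these matches overlapped another.

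Over all members, 9 windows of 7 genes were found, with none for ZFP36L2. The GC box was in 6 of the 9 windows and in 6 of the 7 genes, all but ZFP36L1, and 42.6% of all 35114 promoter windows of this length held it. GCGTG was in 3 of the 9 windows, those of BTG1, TOB2 and ZFP36, against 32.2% of all windows. ACGTG and the CArG box, the core of the serum response element, were in 0 of the 9 windows, against 18.5% and 1.16% of all windows. These matches describe the letters of the windows and binding to them was not analysed here.

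After CoCl2, the transcripts of BTG1 and ZFP36 rose in NS-si cells, and ZFP36 rose in Sp1-si cells. No member fell by the threshold in either comparison, and BTG2 and ZFP36L2 had the most negative ratios in NS-si cells. In NS-si cells, 2 of 8 members were called higher, where 4.73% of the 15124 genes tested were, and 0 were called lower, against 3.91%. In Sp1-si cells, 1 of 8 was called higher, against 3.84% of 15087 genes, and 0 lower, against 4.78%. The median log2 ratio of the 8 members was -0.06 in control and 0.09 in Sp1-silenced cells, beside 0.00 and -0.01 for all genes tested. In bulk RNA, fewer cells that express a gene and less RNA per cell cannot be told apart.

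**Figure D1:**
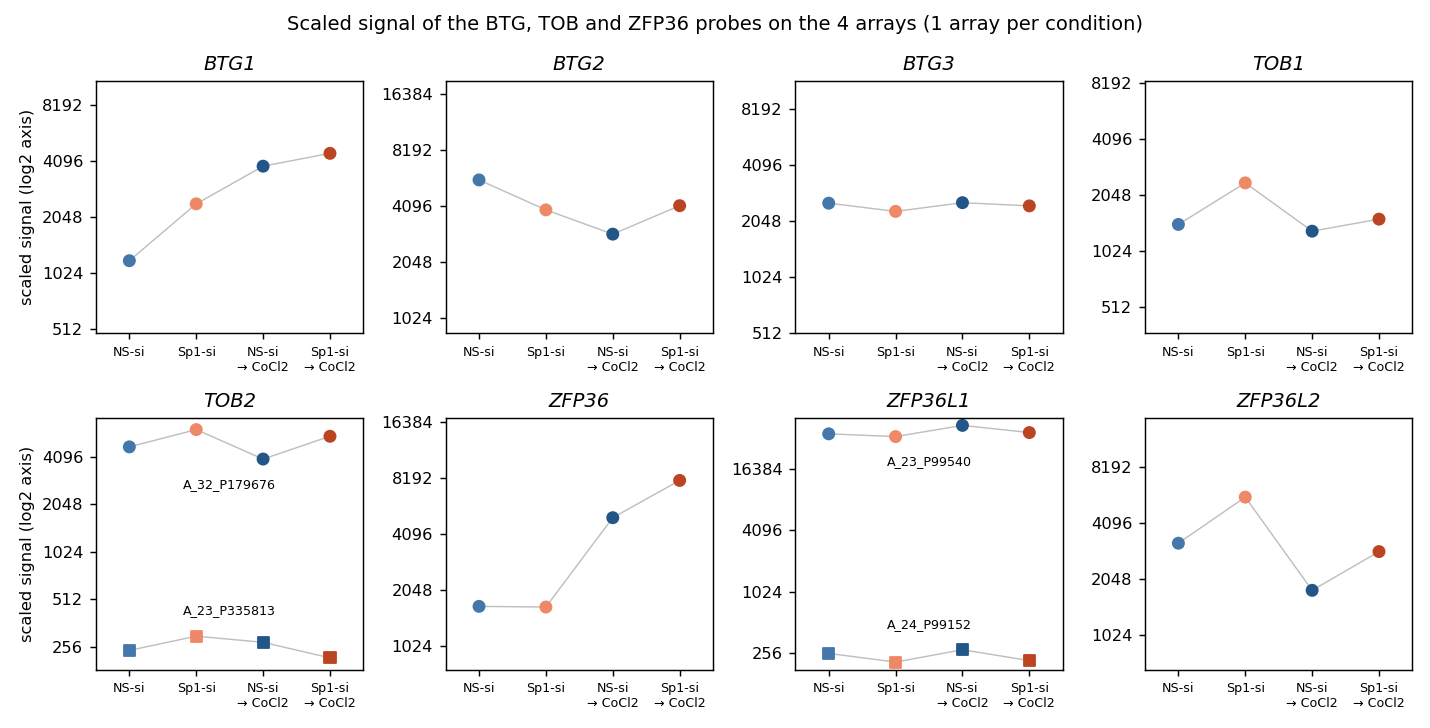
Scaled signal on a log2 axis (vertical) of each probe of the 8 genes in the 4 conditions (horizontal), 1 point per array, with squares for the dimmer probe of TOB2 and ZFP36L1. BTG1 goes from 1199 in NS-si to 4529 in Sp1-si → CoCl2 cells and ZFP36 from 1681 to 7990, whereas BTG3 stays between 2299 and 2561.

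BTG1, the first described member of its family, had a scaled signal of 1199 in untreated control, 2424 in untreated Sp1-silenced, 3863 in CoCl2-treated control and 4529 in CoCl2-treated Sp1-silenced cells. It was lowest in untreated control cells and higher with either treatment, and the CoCl2 cultures were the highest. With CoCl2 it was 3.22-fold higher in control cells, a log2 ratio of 1.69 (SD 0.03). In Sp1-si cells, which started from a higher level, the log2 ratio was 0.90 (SD 0.03), under the threshold, and it was 1.13 without scaling and 1.01 with median scaling. Of the 15124 genes, 260 had a ratio at least as high as BTG1 in NS-si cells, which is 1.72%.

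BTG2, a p53 target, had the most negative CoCl2 ratio of the members in control cells. Its scaled signal was 5680 in untreated control, 3920 in untreated Sp1-silenced, 2904 in CoCl2-treated control and 4130 in CoCl2-treated Sp1-silenced cells. The untreated control culture was the highest and the CoCl2-treated control culture the lowest. The log2 ratio to CoCl2 was -0.97 (SD 0.03) in NS-si cells, just short of the threshold, and it was -1.02, -1.04 and -1.19 with the percentile taken over probes above background, in the authors' value table and without scaling. In Sp1-si cells the ratio was 0.08 (SD 0.03).

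BTG3, a further antiproliferative member, had scaled signals of 2546, 2299, 2561 and 2462 in NS-si, Sp1-si, NS-si → CoCl2 and Sp1-si → CoCl2 cells. These are the closest levels of any member. NS-si cells with and without CoCl2 differed by less than the SD between spots, at 0.01 (SD 0.03) on the log2 scale, and the sign turned in 3 of the other scalings, to -0.22 without scaling. In Sp1-si cells the ratio to CoCl2 was 0.10 (SD 0.03).

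TOB1, which also binds SMAD proteins, had scaled signals of 1421 in untreated control, 2377 in untreated Sp1-silenced, 1307 in CoCl2-treated control and 1518 in CoCl2-treated Sp1-silenced cells. The Sp1-si culture without CoCl2 was the highest and the other 3 lay between 1307 and 1518. Its CoCl2 log2 ratio was -0.12 (SD 0.03) in control and -0.65 (SD 0.03) in Sp1-silenced cells, neither past the threshold.

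TOB2, its close relative, was measured by 2 probes that gave different patterns. Probe A_32_P179676, the brighter, had scaled signals of 4735, 6096, 3962 and 5528 in NS-si, Sp1-si, NS-si → CoCl2 and Sp1-si → CoCl2 cells, with CoCl2 log2 ratios of -0.26 (SD 0.03) in control and -0.14 (SD 0.03) in Sp1-silenced cells, the latter 0.09 without scaling. Probe A_23_P335813 had 242, 298, 272 and 217 in the same order, with ratios of 0.17 (SD 0.06) and -0.46 (SD 0.06). The probes disagreed in sign in NS-si cells by more than these SDs.

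ZFP36 had the widest range of the members, 2.26 on the log2 scale. Its scaled signal was 1681 in untreated control, 1667 in untreated Sp1-silenced, 5038 in CoCl2-treated control and 7990 in CoCl2-treated Sp1-silenced cells. The untreated cultures were level, differing by less than the SD between spots, and both CoCl2 cultures were higher. With CoCl2, ZFP36 was higher in control cells by a log2 ratio of 1.58 (SD 0.03). In Sp1-silenced cells it was 4.79-fold higher, a log2 ratio of 2.26 (SD 0.03). In Sp1-si cells, 90 of 15087 genes, or 0.597%, had a ratio at least as high, and in NS-si cells 293 of 15124 genes, or 1.94%.

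ZFP36L1 was measured by 2 probes. Probe A_23_P99540 had scaled signals of 36468, 34250, 44156 and 37527 in NS-si, Sp1-si, NS-si → CoCl2 and Sp1-si → CoCl2 cells, and CoCl2 log2 ratios of 0.28 (SD 0.03) and 0.13 (SD 0.03). Probe A_24_P99152 had 252, 207, 273 and 214, and ratios of 0.12 (SD 0.06) and 0.05 (SD 0.06). On both probes the control culture with CoCl2 was the highest, and no ratio reached the threshold.

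ZFP36L2, known for a role in blood cell development, had scaled signals of 3201 in untreated control, 5660 in untreated Sp1-silenced, 1786 in CoCl2-treated control and 2885 in CoCl2-treated Sp1-silenced cells. Both CoCl2 cultures were lower than their untreated counterparts, opposite to ZFP36. The CoCl2 log2 ratio was -0.84 (SD 0.03) in control and -0.97 (SD 0.03) in Sp1-silenced cells. Neither passed the threshold, but it was -1.07 in NS-si cells without scaling, and -1.02 in Sp1-si cells with quantile normalization and in the authors' table.

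Without CoCl2, Sp1 silencing left the members with one call, BTG1, and with it none. Comparing Sp1-si with NS-si cells, 1 of 8 members was called higher, against 6.84% of 15197 genes, and 0 lower, against 6.57%. Comparing Sp1-si → CoCl2 with NS-si → CoCl2 cells, 0 members were called higher, against 7.52% of 15071 genes, and 0 lower, against 9.07%. The median log2 ratio of the members was 0.18 without and 0.35 with CoCl2, beside -0.01 and -0.03 for all genes tested.

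Sp1 silencing raised BTG1 2.02-fold, a log2 ratio of 1.02 (SD 0.03), and this call was lost without scaling, at 0.96, and with a normexp background correction, at 0.97. With CoCl2 its ratio was 0.23 (SD 0.03). ZFP36L2 had ratios of 0.82 (SD 0.03) without and 0.69 (SD 0.03) with CoCl2, and TOB1 of 0.74 (SD 0.03) and 0.22 (SD 0.03). These 3 members had the highest ratios without CoCl2, and none but BTG1 reached the threshold on the 75th percentile scale, although ZFP36L2 with CoCl2 was at 1.09 without scaling.

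ZFP36 was level without CoCl2, at -0.01 (SD 0.03) and with a sign that turned in the authors' table, and was at 0.67 (SD 0.03) with CoCl2, or 1.06 without scaling. BTG2 was at -0.53 (SD 0.03) without and 0.51 (SD 0.03) with CoCl2. Probe A_32_P179676 of TOB2 was at 0.36 (SD 0.03) and 0.48 (SD 0.03), and probe A_23_P335813 at 0.30 (SD 0.06) and -0.33 (SD 0.05). BTG3 was at -0.15 (SD 0.03) and -0.06 (SD 0.03), the latter 0.34 without scaling. ZFP36L1 was at -0.09 (SD 0.02) and -0.23 (SD 0.02), the latter 0.16 without scaling, and its dimmer probe at -0.28 (SD 0.06) and -0.35 (SD 0.05).

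**Figure D2:**
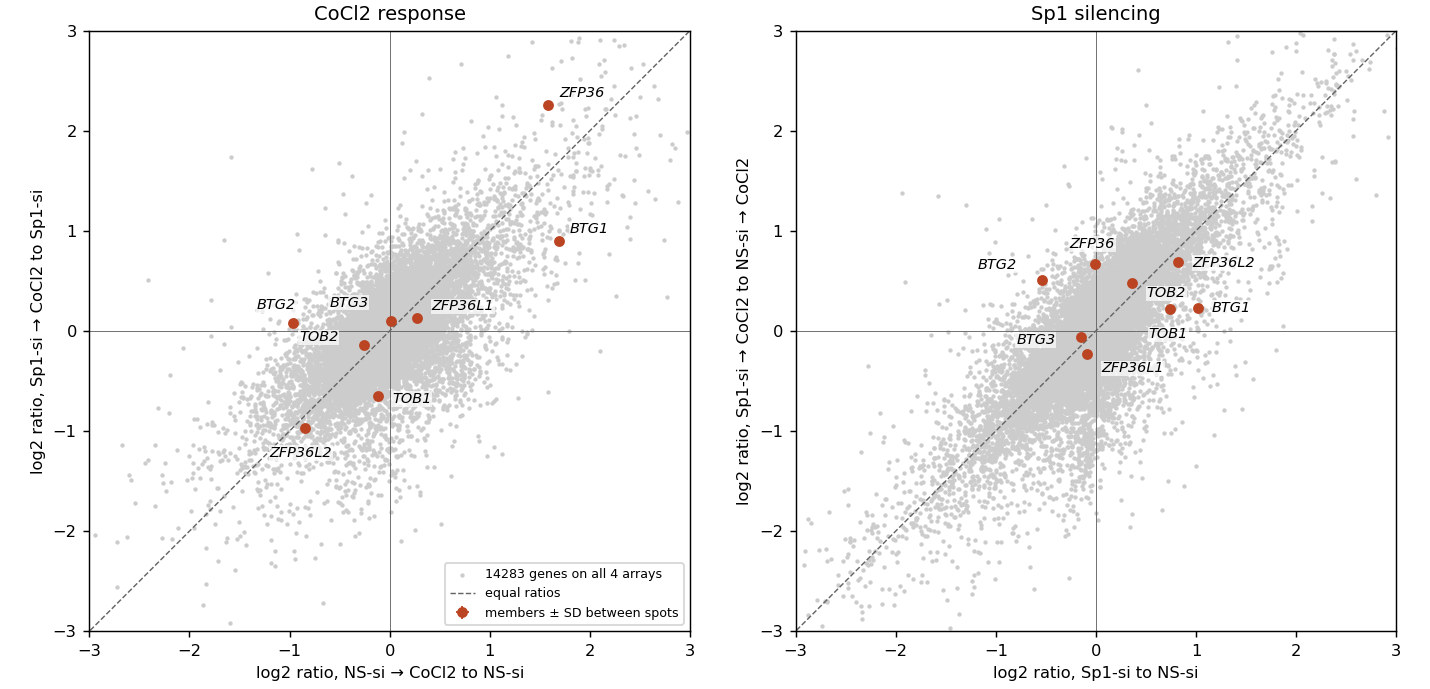
Log2 ratios of CoCl2 in NS-si (horizontal) and Sp1-si cells (vertical) on the left, and of Sp1 silencing without (horizontal) and with CoCl2 (vertical) on the right. Red points are the 8 genes by their brightest probe with the SD between spots, which is smaller than the points, grey points the 14283 genes well above background on all arrays, of which 28 on the left and 59 on the right lie outside the axes. ZFP36 lies at 1.58 and 2.26 on the left, and BTG2 lies off the diagonal in both panels.

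The CoCl2 ratio in Sp1-si cells minus that in NS-si cells gives the change of the response with Sp1 silencing. It equals the change of the Sp1 silencing ratio with CoCl2, since all 4 arrays enter it, and the comparisons share arrays and are not independent of each other. BTG2 was the member past the threshold, with a difference of 1.04 (SD 0.04). Of 8 members, 1 was called higher, against 0.973% of 14283 genes, and 0 lower, against 2.88%. The member median was -0.02 and that of all genes 0.01.

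For BTG2, 124 of the 14283 genes, or 0.868%, had a difference at least as high, and it was at least 1.04 over the 6 scalings. The difference was 0.68 (SD 0.04) for ZFP36, which reached 1.13 without scaling, so both genes had a more positive CoCl2 ratio after Sp1 silencing than in control cells. For BTG1 it was -0.79 (SD 0.04) and for TOB1 -0.53 (SD 0.04), with values of -0.33 and -0.07 without scaling. The 2 kinds of cells were farther apart in BTG1 signal without CoCl2, at 1199 and 2424, than with it, at 3863 and 4529. For BTG3 it was 0.09 (SD 0.04) and for the brighter TOB2 probe 0.12 (SD 0.04). ZFP36L1 and ZFP36L2 were at -0.14 (SD 0.03) and -0.13 (SD 0.04), and both turned positive without scaling, to 0.31 and 0.32.

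**Figure D3:**
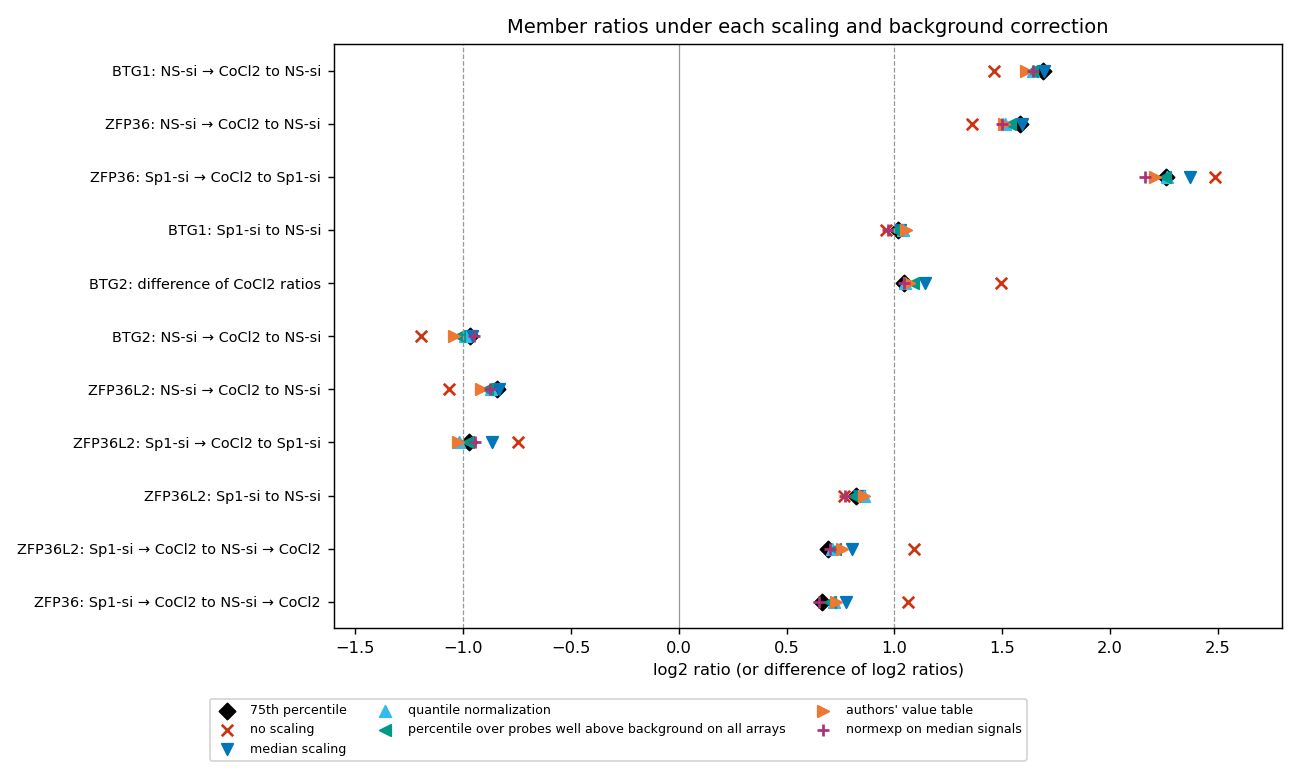
Log2 ratios or differences (horizontal) of the member comparisons at or near the threshold (rows), with 1 symbol for each scaling or background correction and dashed lines at -1 and 1. No scaling moves the values most. The CoCl2 ratios of BTG1 in NS-si cells and of ZFP36 in both kinds of cells, and the BTG2 difference, stay past the threshold under all, and the Sp1 silencing ratio of BTG1 goes from 1.02 to 0.96.

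The scaling matters because the arrays differed in overall brightness. Leaving it out moved the median log2 ratio of all genes by -0.23 for CoCl2 in NS-si cells, 0.23 for CoCl2 in Sp1-si cells, 0.40 for Sp1 silencing with CoCl2 and 0.45 for the difference, and median scaling moved the last 3 by 0.11, 0.11 and 0.10. The share of higher genes among all called genes was 54.7% for CoCl2 in NS-si cells and 32.4% without scaling. For CoCl2 in Sp1-si cells it was 44.6%, and 68.0% without scaling and 55.7% with median scaling. For Sp1 silencing with CoCl2 it was 45.3%, and 78.4% and 55.9%. For the difference it was 25.2%, and 92.3% without scaling, 40.9% with median scaling and 37.6% with quantile normalization. The calls of BTG1 and ZFP36 for CoCl2 in NS-si cells, of ZFP36 for CoCl2 in Sp1-si cells and of BTG2 for the difference held under all 6 scalings.

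At a lower threshold of 0.5, more members passed, and all genes did so too. For CoCl2 in NS-si cells, 2 members were higher, against 14.4% of genes, and 2 lower, against 13.1%, which adds BTG2 and ZFP36L2. For CoCl2 in Sp1-si cells, 2 were higher, against 13.3%, and 2 lower, against 15.3%, which adds BTG1, TOB1 and ZFP36L2. For Sp1 silencing without CoCl2, 3 were higher, against 17.2%, and 1 lower, against 17.1%. With CoCl2, 3 were higher, against 19.8%, and 0 lower, against 22.4%. For the difference, 2 were higher, against 8.02%, and 2 lower, against 10.4%.

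Genes that act with the members were counted in lists, and each count stands beside the share of all genes called in that comparison, given above. Of 16 listed genes of the deadenylation complexes, 15 had a probe and were tested. In NS-si cells 0 of 15 were called after CoCl2, where 4.73% of all genes were called higher and 3.91% lower, and the list median was 0.10. In Sp1-si cells 1 of 15 was called higher, against 3.84% of all genes, and 0 lower, against 4.78%. This was PABPC4, a poly(A)-binding protein, at 1.13 (SD 0.03). Counts of this size in a list of 15 are near these shares. CNOT7 and CNOT8, the deadenylase subunits that BTG and TOB proteins bind, were not called and are given for their role. CNOT7 had CoCl2 ratios of 0.10 and -0.05, and CNOT8 of 0.85 and 0.90 in NS-si and Sp1-si cells. With Sp1 silencing, 0 of 15 were called without CoCl2, where 6.84% of all genes were called higher and 6.57% lower. With CoCl2 the CCR4-NOT subunit CNOT3 rose, at 1.09 (SD 0.05), 1 of 15 against 7.52% of all genes. The deadenylase CNOT6L fell by 1.72 (SD 0.11), with a further probe at -1.10, 1 of 15 against 9.07%. CNOT6L was also the gene called for the difference, 1 of 15 lower against 2.88% of all genes. Its difference was -1.21 (SD 0.15), and -0.75 without scaling. With the normexp correction CNOT3 was at 0.91 and the CNOT6L difference at -0.76.

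Decapping and 5′ and 3′ decay follow the loss of the poly(A) tail. Of 15 genes of these steps, 0 were called after CoCl2 in either kind of cell, with medians of 0.08 and -0.15. Of all genes, 4.73% were called higher and 3.91% lower in NS-si cells, and 3.84% and 4.78% in Sp1-si cells. With Sp1 silencing, 1 of 15 was called higher without and with CoCl2, against 6.84% and 7.52% of all genes. In both, 0 were called lower, against 6.57% and 9.07%. The gene called was the decapping enzyme DCP2, by 1.22 (SD 0.03) on the log2 scale without and 1.41 (SD 0.03) with CoCl2. The other DCP2 probe had 0.88 and 0.73. No gene of this list was called for the difference, where 0.973% of all genes were called higher and 2.88% lower. Counts of 0 or 1 in a list of 15 are near these shares.

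Of 12 other proteins that bind or cut mRNAs with AU-rich or related elements, 1 was called after CoCl2 in each kind of cell. The gene called was ZC3H12A (regnase-1), an RNase that degrades inflammatory mRNAs, at 2.11 (SD 0.04) in control and 1.65 (SD 0.03) in Sp1-silenced cells. ZC3H12A thus rose in the same cultures as ZFP36. The list median was 0.14 and 0.19. None of the 12 was called with Sp1 silencing, with or without CoCl2. Of all genes, 6.84% were called higher and 6.57% lower without CoCl2, and 7.52% and 9.07% with it. Counts of 0 or 1 in a list of 12 are near these shares.

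**Figure D4:**
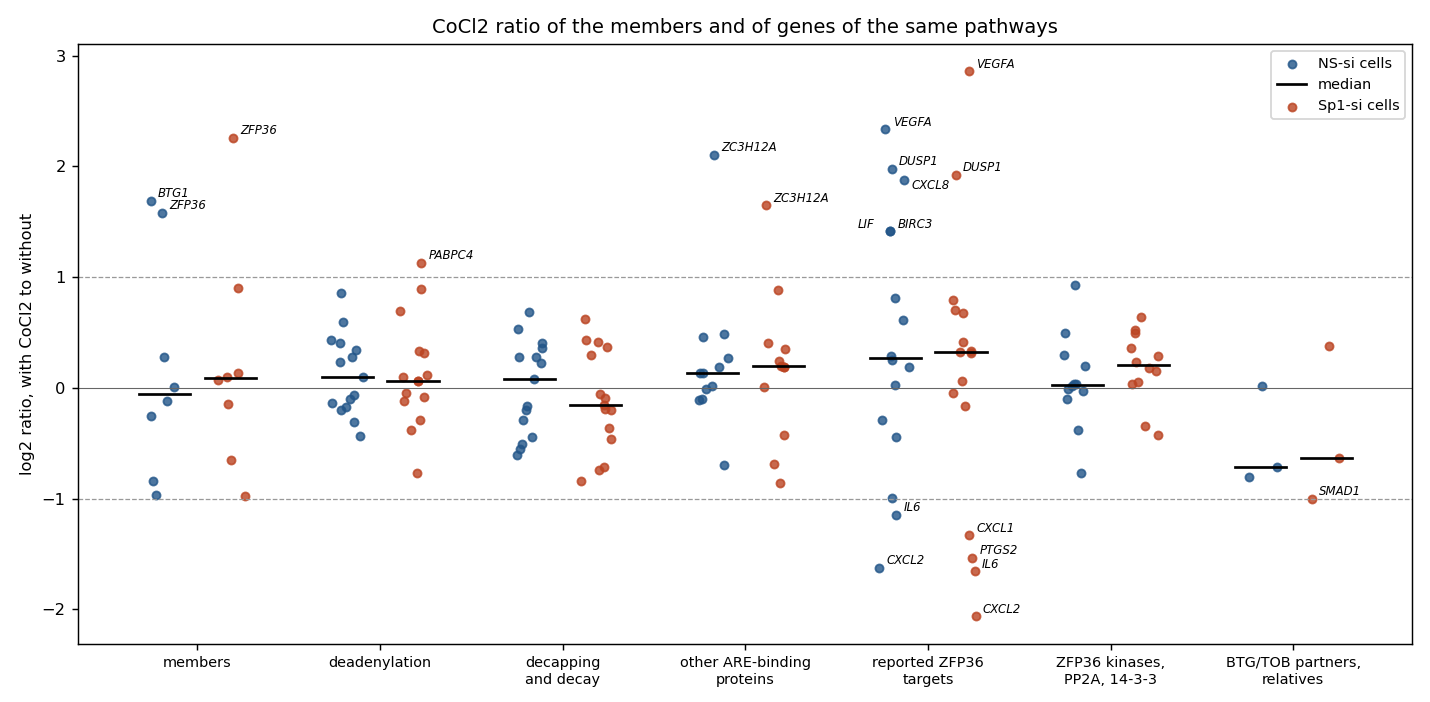
Log2 ratio of CoCl2-treated to untreated cells (vertical) for the 8 genes and the lists of related genes above background on every array (horizontal), with 1 point per gene, blue for NS-si and red for Sp1-si cells, black bars at medians and dashed lines at the thresholds of -1 and 1. The reported ZFP36 targets spread from -1.62 to 2.34 in NS-si and from -2.06 to 2.86 in Sp1-si cells, wider than the other lists.

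Transcripts that ZFP36 proteins are reported to bind and destabilise moved in both directions. Of 18 listed, 16 were tested, and CSF2 and CCL2 were well above background on none of the arrays. In NS-si cells 5 of 16 rose after CoCl2, against 4.73% of all genes, and 2 fell, against 3.91%. The list median was 0.27. VEGFA, the main angiogenic factor, rose by 2.34 (SD 0.03) on the log2 scale, and DUSP1, a MAP kinase phosphatase, by 1.98 (SD 0.03). The chemokine CXCL8 was at 1.88 (SD 0.18), but its probe was dim and had 0.60 with the normexp correction. The apoptosis inhibitor BIRC3 and the cytokine LIF, the latter named after its values were seen, both rose by 1.41 (SD 0.03). The chemokine CXCL2 and the cytokine IL6 fell, at -1.62 (SD 0.05) and -1.15 (SD 0.03). The other CXCL2 probe had -0.98, short of the threshold.

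In Sp1-si cells, 2 of the 16 rose after CoCl2, against 3.84% of all genes, and 4 fell, against 4.78%. The list median was 0.32. VEGFA rose by 2.86 (SD 0.03) and DUSP1 by 1.92 (SD 0.03). CXCL2 fell to a ratio of -2.06 (SD 0.05), its other probe having -1.37. IL6 fell to -1.66 (SD 0.04) and PTGS2, the prostaglandin synthase COX-2, to -1.53 (SD 0.03). CXCL1, named after its values were seen, fell by 1.33 (SD 0.03). CXCL2, by its brightest probe, and IL6 thus fell in both kinds of cells in which ZFP36 rose, and VEGFA and DUSP1 rose in both. No part of ZFP36 in these levels was tested.

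With Sp1 silencing and no CoCl2, 2 of the 16 rose, against 6.84% of all genes, and 1 fell, against 6.57%. IL6 rose by 1.75 (SD 0.04) and TNF, the inflammatory cytokine, by 1.33 (SD 0.06), its other probe having 0.29, and VEGFA fell by 1.81 (SD 0.03). With CoCl2, 2 rose, against 7.52% of all genes. They were TNF by 1.36 (SD 0.07), its other probe having 0.48, and IL6 by 1.24 (SD 0.02). In the same comparison 3 fell, against 9.07% of all genes. They were BIRC3 at -1.52 (SD 0.03), VEGFA at -1.29 (SD 0.03) and CXCL8 at -1.12 (SD 0.18). The falls of VEGFA and CXCL8 were at -0.89 and -0.72 without scaling. For the difference, 0 were higher, against 0.973% of all genes, and 2 lower, against 2.88%. These were CXCL8 at -1.21 (SD 0.25) and PTGS2 at -1.09 (SD 0.06), both under the threshold without scaling. With the normexp correction, the ratio of TNF with CoCl2 was 0.96, that of IL6 after CoCl2 in control cells -0.99 and the PTGS2 difference -0.94, each short of the threshold.

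Of 12 kinases, phosphatase subunits and 14-3-3 proteins that act on ZFP36, 0 were called after CoCl2 in either kind of cell. All-gene shares were 4.73% higher and 3.91% lower in NS-si cells, and 3.84% and 4.78% in Sp1-si cells. YWHAH, a 14-3-3 protein, rose with Sp1 silencing, by 1.45 (SD 0.03) without and 2.11 (SD 0.03) with CoCl2. This was 1 of 12 called higher in each comparison, against 6.84% of all genes without and 7.52% with CoCl2. In both, 0 of 12 were called lower, against 6.57% and 9.07%. MAPK14, MAPKAPK2 and MAPKAPK3, which phosphorylate ZFP36 or activate its kinase, were not called in any comparison. Of 5 partners and relatives of BTG and TOB, 3 were tested. After CoCl2 in Sp1-si cells, 1 of these 3 was called lower, against 4.78% of all genes, and 0 higher, against 3.84%. SMAD1, a mediator of BMP signalling, fell after CoCl2 in Sp1-si cells just past the threshold, at -1.002 (SD 0.03), and had -0.77 without scaling and -0.48 on another probe. BTG4, a germ cell relative, was well above background on none of the arrays.

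The genes whose levels over the 4 arrays were most like those of ZFP36, the member with the widest range, were CRYBG3, BNIP3, HOXD10, BHLHE40 and DNAJB1, among 14283 genes. Their root mean square log2 differences from it were 0.11, 0.11, 0.12, 0.12 and 0.14 after centring. BNIP3, a mitophagy receptor, had CoCl2 log2 ratios of 1.72 in control and 2.22 in Sp1-silenced cells, and BHLHE40, a transcriptional repressor, 1.70 and 2.06. DNAJB1, a cochaperone, had 1.95 and 2.21. HOXD10 was dim, with scaled signals from 8.39 to 36.1. With 4 arrays, likeness describes these cultures alone.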

How the data were processed

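Members and gene lists were chosen with earlier results of these data known. Cy3-labelled RNA of OVSAYO cells was hybridised to Agilent whole human genome arrays, 1 per condition, with groups taken from the labels. The intensities deposited by the authors are processed spot signals from Agilent Feature Extraction 10.5.1.1, per the file headers after background subtraction and detrending. The study's methods name no normalization. The authors' value table equals this signal times 1 constant per array (1.43, 1.52, 1.58 and 1.25, with column medians of 216, 220, 204 and 197), so direction and linear scale are known and the basis of the constants is not.

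Here, log2 signals were centred on the 75th percentile of each array, outlier spots were left out and spots of a probe averaged. A probe was well above background when at least 50% of its spots were. Each gene was represented by its brightest probe, and all member probes are given. Of 29877 spots with a RefSeq-type accession, 28463 matched a symbol in the reference table. The member probes had 1 spot each, so the SD is the median over the 51 of 264 10-spot probes nearest in signal. Genes were called at a log2 ratio of at least 1 in size. Named genes are all members, SP1, called genes of each list (at most the 4 largest per list and comparison) and the 5 genes most like the member of widest range. Alternatives were 4 other scalings, the authors' table, outlier spots kept, the mean over probes, a stricter filter, a threshold of 0.5 and, chosen after seeing the data, a normexp correction (offset 50) of median signals, since the mean signals planned for it were not used here. Counting was run on simulated data for CoCl2 in NS-si cells, where 200 of 200 planted probes and 0 others among 41000 were called. The planted shifts were well past the threshold, in brighter probes and with small, even noise. This run therefore checks the counting alone, and not the calls of dim probes or differences between cultures. Motifs were counted in RefSeq promoter windows. A planned comparison of protein sequences was not done, and array coordinates, on an older build than the reference, were not used. The study's other experiments were not analysed here, and 1 result is not reported here. Python 3.11.15, numpy 2.4.6, pandas 2.3.3, matplotlib 3.10.9, R 4.3.3 and limma 3.58.1 were used.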

Additional observations from a re-analysis of the deposited data

Results flagged for a closer look

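BTG2 stood out because its CoCl2 log2 ratio had opposite signs in the 2 kinds of cells, -0.97 in control and 0.08 in Sp1-silenced cells, a difference of 1.04. The same 4 values give Sp1 silencing ratios of -0.53 without and 0.51 with CoCl2. Each condition had 1 array, so every sample of a group was a single culture and the difference was not tested.

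Probe A_23_P335813 of TOB2 also had opposite signs, with CoCl2 ratios of 0.17 in control and -0.46 in Sp1-silenced cells, a difference of -0.63, and Sp1 silencing ratios of 0.30 and -0.33. This difference was not tested either, and the brighter probe of TOB2 had a difference of 0.12.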

How the results depend on the processing

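No paired analysis was possible because each group had 1 array. No called member ratio changed sign under any alternative run. Without scaling, 4 members were called for CoCl2 in NS-si cells (2 on the main scale), 2 for CoCl2 in Sp1-si cells (1), 0 for Sp1 silencing without CoCl2 (1), 2 for Sp1 silencing with CoCl2 (0) and 2 for the difference (1). The member medians in this order were then -0.28, 0.31, 0.12, 0.75 and 0.43, beside -0.22, 0.22, -0.06, 0.36 and 0.47 for all genes tested. In this order, 482, 977, 932, 2461 and 915 of all genes were called higher, against 716, 580, 1039, 1134 and 139 on the main scale. Called lower were 1005, 459, 1109, 678 and 76 of all genes, against 592, 721, 998, 1367 and 412. The threshold of 0.5 gave 4, 4, 4, 3 and 4 calls, with the shares of all genes given above. Median scaling, quantile normalization and the authors' table each gave 2 calls for CoCl2 in Sp1-si cells, and normexp gave 0 for Sp1 silencing without CoCl2. For CoCl2 in Sp1-si cells, these scalings called 728, 644 and 521 of all genes higher and 579, 635 and 807 lower. With median scaling the medians were 0.19 for CoCl2 in Sp1-si cells, 0.47 for Sp1 silencing with CoCl2 and 0.080 for the difference. Quantile normalization gave 0.047 and 0.40 for CoCl2 in Sp1-si cells and Sp1 silencing with CoCl2. The percentile over probes well above background gave -0.11 for CoCl2 in NS-si cells, 0.39 for Sp1 silencing with CoCl2 and 0.024 for the difference. The authors' table gave -0.13 and 0.036 for CoCl2 in NS-si and Sp1-si cells, and 0.21 and 0.42 for Sp1 silencing without and with CoCl2. The mean over probes gave -0.017 for CoCl2 in NS-si cells, 0.22 for Sp1 silencing with CoCl2 and -0.12 for the difference. The member median of the difference thus had no stable sign. The cause was not tested beyond the construction of each scaling. The other 61 values of this kind moved by less than the SD between spots or, for counts, by at most 1.5 times. Normexp on mean signals was planned and not run. Single spots and single cultures limit all values, and leaving out an array was not possible.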
